A study of Mus musculus with 32 samples.

Results

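The genotype-dependent injury response in midbrain is the amount by which the effect of chronic constriction injury (CCI) on a transcript differs between mice lacking Cckbr and control mice. It was computed for each probe set as CCI minus sham in mice lacking Cckbr (KO), minus CCI minus sham in control mice, on a log2 scale. This difference of differences, here called the interaction, is above 0 where the injured KO mice stand higher against their sham group than the injured controls do against theirs. It used the 16 midbrain arrays of 32 in all, in 4 groups of 4 (control sham, control CCI, KO sham and KO CCI), and 22626 probe sets. The other 16 arrays hold the medulla, taken from the same mice. Each array of a group is a separate animal by the series' design. The control mice are labelled only as control, the mutants only as KO, and strain, age, sex, the time after the operation and the exact dissection are not given in the sources used here.

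Cckbr encodes the cholecystokinin B receptor, a G protein-coupled receptor that binds the brain peptide cholecystokinin (CCK) and gastrin. In the midbrain, the periaqueductal grey sends descending output through the medulla to the spinal cord, and there CCK is known to oppose the pain relief given by opioids. CCI ties loose ligatures around a peripheral nerve, classically the sciatic nerve, and produces lasting hypersensitivity to touch and heat. The interaction asks whether a midbrain that lacks the receptor responds to such an injury differently from one that has it.

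The tissue label was checked first. Slc6a3, the dopamine transporter of midbrain dopamine neurons, read 480 to 762 intensity units in the midbrain arrays and -11 to 16 in the medulla arrays. Th, the enzyme that commits tyrosine to dopamine synthesis, read 302 to 430 in midbrain and 46 to 112 in medulla. The hindbrain gene Hoxa5 gave the opposite order, with 3 to 30 in midbrain and 261 to 900 in medulla, and Hoxb5 read -22 to 16 and 153 to 535. For none of these 4 genes did the 2 regions overlap. En1 was also separate, with 33 to 66 in midbrain and -6 to 29 in medulla. Other genes read for this check overlapped: Pitx3 (29 to 63 and 23 to 64), Hoxc5 (17 to 41 and 36 to 94) and Dbh (82 to 177 and 35 to 208).

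The genotype labels also held for the deleted gene. In the midbrain the brighter Cckbr probe set read 153, 166, 122 and 168 in control sham mice and 164, 158, 172 and 177 in control CCI mice. It read 13, -1, 12 and 9 in KO sham mice and 9, 7, 7 and 6 in KO CCI mice, so no KO array came near a control array. Its interaction was -0.20 (SE 0.22), or -0.39 without KO sham replicate 2, whose value lies below 0. The dimmer Cckbr probe set gave 0.29 (SE 0.32), or 0.08 without that array.

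Depth cannot be counted on arrays, so their number limits the precision. Array medians lay between 91.1 and 99.7, 2.14% of the values were at or below 0, and arrays of a group correlated at 0.966 to 0.988 across probe sets. The first principal component of the 16 arrays held 17.8% of the variance, and along it the KO sham group was split: replicates 1 and 3 lay at 20.1 and 21.9, replicate 4 at -26.4 and replicate 2 at -36.0. The other 12 arrays lay between -16.2 and 17.7. KO sham replicate 2 also had the largest log2 ratio of the 3' to the 5' control probe set of Actb, a measure of RNA and labelling quality, at 1.602 against 0.36 to 0.73 in the other 15 arrays. KO sham replicate 4 read 0.63 there, within that range. Both arrays bear on each interaction, because the KO sham group enters it, so for many of the genes below the value without them is given too. The descriptions also carry an array code. Replicates 1 and 2 of each midbrain group carry low codes (control sham replicate 1 differs from the rest of these), and replicates 3 and 4 carry a higher one, so each interaction could also be computed within the codes.

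**Figure D1:**
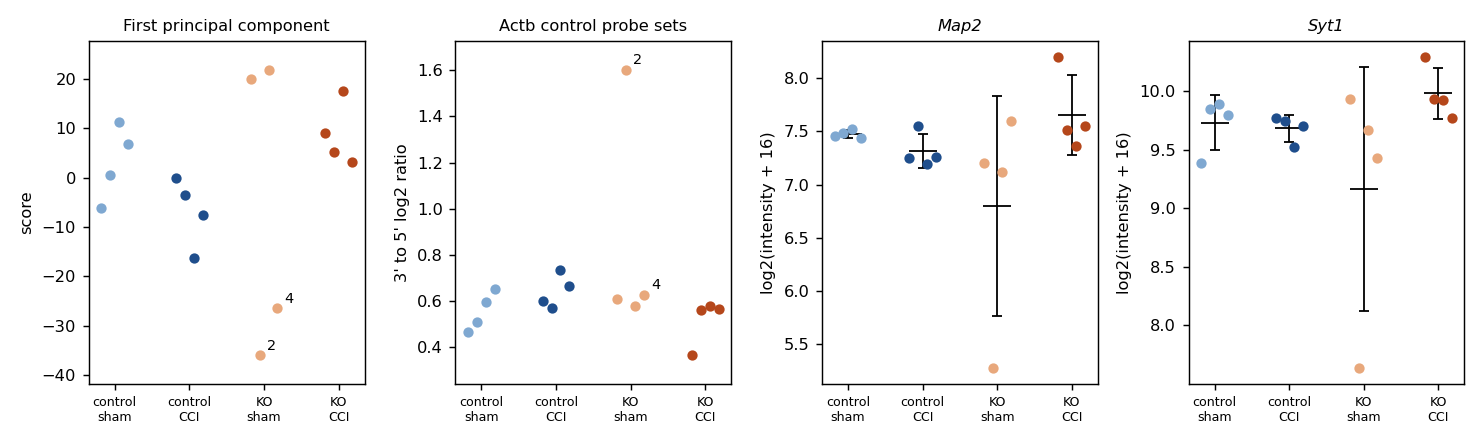
The 16 midbrain arrays by group: score on the first principal component, log2 ratio of the 3' to the 5' Actb control probe set, and log2(intensity + 16) of the dimmer Map2 probe set and of Syt1, with the mean and SD of the 4 arrays of a group as bars in the right panels. KO sham replicate 2 lies at -36.0 on the component and 1.602 on the ratio and is the lowest array for Map2 and Syt1.

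No transcript passed the test of the interaction. At an adjusted p under 0.05 (limma, Benjamini-Hochberg over 22626 probe sets) 0 probe sets were called, which is 0% of those tested, and the smallest adjusted p was 0.822. At an unadjusted p under 0.05 there were 1241 probe sets, or 5.48%, of which 645 (2.85%) had an interaction above 0 and 596 (2.63%) below 0. A share near 5% is what that threshold gives where nothing differs. The smallest unadjusted p was 0.000343, for Kifap3.

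The parts of the interaction did not pass either. In control mice CCI against sham gave 0 calls (0%) and a smallest adjusted p of 1, and an unadjusted p under 0.05 was reached by 679 probe sets (3%). In KO mice it gave 0 calls (0%) and a smallest adjusted p of 0.601, and 1863 probe sets (8.23%) reached that unadjusted p. The SD of the log2 response over all probe sets was 0.16 in control mice and 0.20 in KO mice. The responses of the 2 genotypes, which share no array, correlated across probe sets at r = -0.040, a description over features that are not independent.

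**Figure D2:**
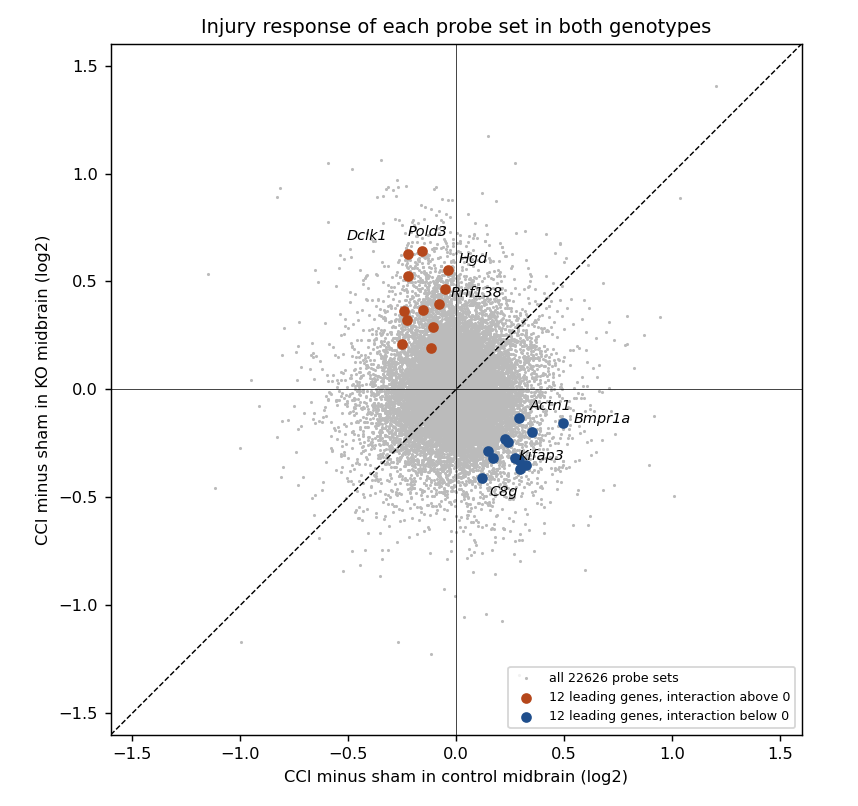
CCI minus sham (log2) of each of the 22626 probe sets in control midbrain (horizontal) and in KO midbrain (vertical), with the 24 genes of smallest interaction p coloured. The cloud has no diagonal trend (r = -0.040), the coloured genes lie at its upper left and lower right edges because the interaction chose them, and 3 probe sets lie outside the plotted range of 1.6.

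The error sets which sizes of interaction lie inside the intervals. The median SE of an interaction was 0.19 on the log2 scale and the median half-width of its 95% interval was 0.41. With 1 probe set per gene, that of highest mean level, the interval of 11124 of 12393 genes (89.8%) lay within a 2-fold difference in either direction, and that of 7064 genes (57%) within 1.5-fold. These are intervals for single genes, not adjusted for their number. They are on the log2(intensity + 16) scale, which understates differences of dim genes. In this bulk tissue, fewer cells of a type and less RNA per cell cannot be told apart.

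The 24 genes of smallest interaction p, 12 in each direction, among those with a group mean of at least 50, are given here as values. They were picked by that p, so their size and their opposite signs in the 2 genotypes (24 of 24) describe the choice. Absolute interactions ran from 0.31 to 0.85, and the adjusted p was 0.822 for each. In 20 of the 24 the KO sham group was outermost of the 4 group means (lowest in 11 of 12 genes above 0, highest in 9 of 12 below 0). The same held for 72% of the 1241 probe sets at an unadjusted p under 0.05 and for 51.9% of all probe sets. Within the KO sham group, replicate 2 or 4 was the array farthest out on the side that makes the interaction in 22 of 24 genes, against 81.3% of the 1241 and 70.7% of all probe sets. Without these 2 arrays the interaction kept its sign in 24 of 24 genes and was smaller in 22, all but Hgd and Tcof1. Within the low and the high array codes taken apart, 24 of 24 also kept their sign, as the choice by a pooled value favours.

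Among genes of intracellular transport and the cytoskeleton, Kifap3 encodes the non-motor subunit of the kinesin-2 complex. Its intensities were 663, 763, 803 and 786 in control sham, 898, 858, 915 and 918 in control CCI, 886, 880, 841 and 1027 in KO sham, and 752, 778, 738 and 815 in KO CCI. Neither genotype's sham and CCI arrays overlapped, with CCI higher in controls and sham higher in KO mice. CCI minus sham was 0.24 in control and -0.25 in KO mice, an interaction of -0.48 (SE 0.10, limma's unadjusted p = 0.000343, adjusted p = 0.822), and -0.58 and -0.39 within the low and the high array codes. The brighter probe set of the same gene, with group means of 1413 to 1485, gave 0.00 (SE 0.10).

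Klc4 encodes a light chain of kinesin-1. It read 80, 88, 97 and 91 in control sham and 74, 76, 73 and 64 in control CCI, without overlap, and 63, 49, 78 and 63 in KO sham against 86, 95, 68 and 90 in KO CCI, where 1 array of each overlapped. Its interaction was 0.55 (SE 0.15), and its other probe set gave -0.04. Actn1, an alpha-actinin that crosslinks actin filaments, read 140, 139, 131 and 122 in control sham against 171, 160, 167 and 175 in control CCI. In KO mice it read 150, 165, 165 and 159 in sham against 143, 152, 134 and 158 in CCI. The interaction of -0.42 (SE 0.10) came mainly from the control side (0.29, against -0.13 in KO mice), and the other 2 probe sets of the gene gave 0.11 and 0.07.

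Dclk1, a microtubule-associated kinase of the doublecortin family, had the largest absolute interaction of the 24 at 0.85 (SE 0.25, adjusted p = 0.822). It read 158, 172, 174 and 149 in control sham, 158, 146, 124 and 129 in control CCI, 135, 53, 128 and 99 in KO sham, and 202, 143, 168 and 147 in KO CCI. The lowest of the 16 values was KO sham replicate 2, and without replicates 2 and 4 of that group the interaction was 0.52. A further probe set of Dclk1 gave the opposite sign, -0.88 (SE 0.29, unadjusted p = 0.00828), and there KO sham replicate 4 was the highest array at 403. The brightest Dclk1 probe set, with group means of 660 to 698, gave 0.05 (SE 0.09), so the probe sets of this gene did not share a direction.

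**Figure D3:**
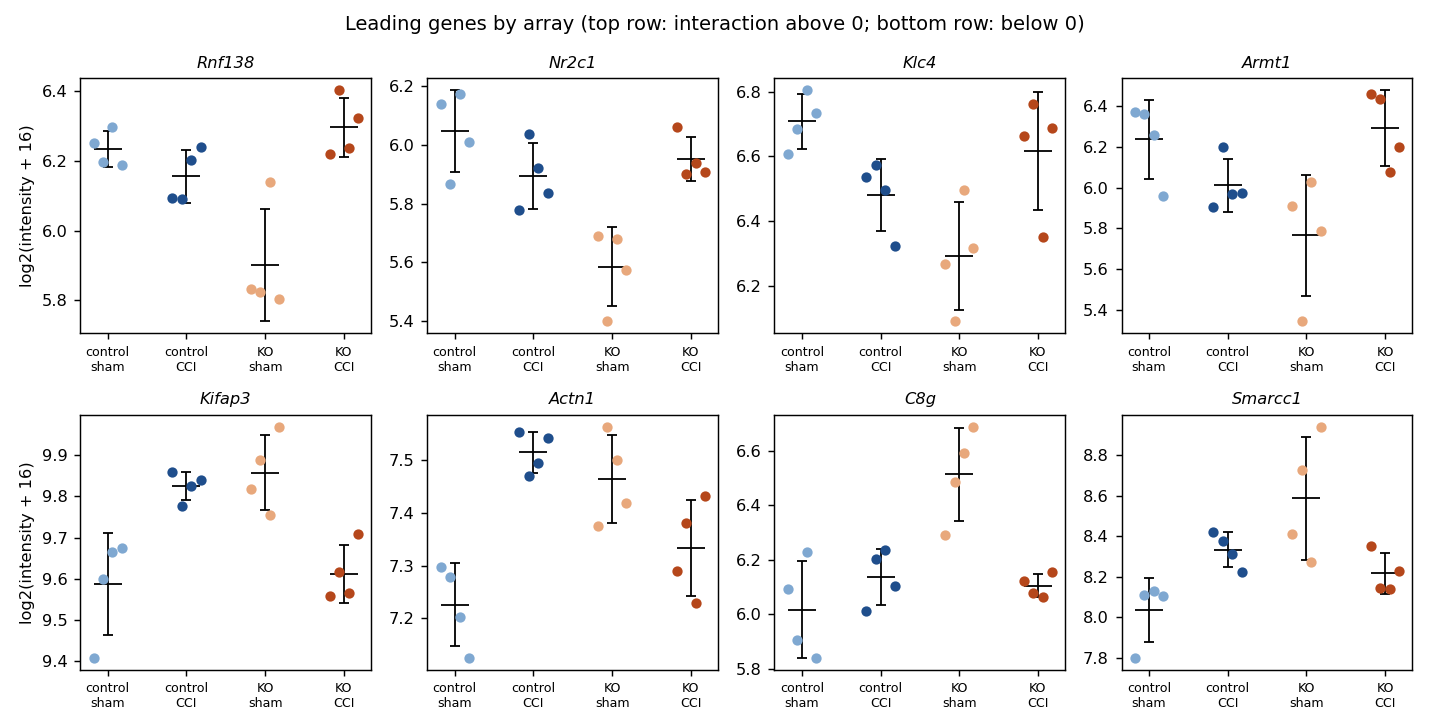
Log2(intensity + 16) of the 4 genes of smallest interaction p in each direction (above 0 in the top row, below 0 in the bottom row), 1 point per midbrain array, with the mean and SD of the 4 arrays of a group. KO sham is the lowest group in the 4 upper panels, while in the Kifap3 panel (means 754, 897, 908 and 771 intensity units) the 2 genotypes show opposite orders.

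Several of the 24 act in the nucleus. Smarcc1, a core subunit of the SWI/SNF chromatin remodelling complex, read 204, 260, 264 and 253 in control sham and 323, 314, 308 and 291 in control CCI. In KO mice it read 319, 388, 290 and 508 in sham against 317, 270, 262 and 281 in CCI, with replicates 2 and 4 of KO sham as the 2 highest of the 16 arrays. Its interaction of -0.67 (SE 0.18) became -0.42 without those 2 arrays.

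Tcof1, the nucleolar protein treacle that serves ribosomal RNA gene transcription, read 85, 79, 89 and 89 in control sham and 94, 91, 90 and 107 in control CCI. In KO mice it read 108, 115, 128 and 99 in sham and 99, 79, 92 and 97 in CCI, so that on the normalized scale sham and CCI were separate in both genotypes. Its interaction was -0.44 (SE 0.12), and its other 2 probe sets gave -0.71 (unadjusted p = 0.0136) and -0.27. Polr1d, a subunit shared by RNA polymerases I and III, read 514, 477, 500 and 469 in control sham and 614, 538, 593 and 596 in control CCI, without overlap. KO sham read 573, 606, 590 and 699 and KO CCI 572, 495, 442 and 605, which overlapped. The interaction was -0.46 (SE 0.13), but the other Polr1d probe set gave 0.33 (SE 0.11, unadjusted p = 0.0101).

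Ybx3, a cold-shock domain protein that binds DNA and RNA, had an interaction of -0.55 (SE 0.15), with group means of 386 in control sham, 505 in control CCI, 503 in KO sham and 436 in KO CCI. The orphan nuclear receptor gene Nr2c1 had 0.52 (SE 0.13), with 25 to 39 in KO sham against 45 to 50 in KO CCI and no overlap there. Ifrd1, a transcriptional co-regulator, had 0.46 (SE 0.13), with 174 to 201 in KO sham against 209 to 248 in KO CCI. Pold3, an accessory subunit of DNA polymerase delta, had 0.80 (SE 0.24). Its KO sham arrays read 38, 24, 44 and 12, so the lowest was replicate 4, and without replicates 2 and 4 the interaction was 0.49. Its brighter probe set gave -0.23.

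Rnf138, a ubiquitin ligase that acts in DNA break repair, read 58, 59, 63 and 59 in control sham, 50, 50, 56 and 59 in control CCI, 43, 38, 59 and 39 in KO sham, and 58, 71, 62 and 67 in KO CCI. Its interaction of 0.47 (SE 0.12) came almost wholly from the KO side (0.40, against -0.08 in controls). Its other probe sets had the opposite sign, with -0.14 for the brighter one and -0.40 (SE 0.27) for a dim one. Cnot8, a deadenylase of the CCR4-NOT complex that shortens mRNA tails, read 166, 124, 178 and 183 in KO sham against 281, 235, 206 and 206 in KO CCI. The control arrays all lay between 197 and 231, and the interaction was 0.51 (SE 0.15), with 0.16 for the brighter probe set. Prpf4b, a kinase of the splicing machinery, had 0.40 (SE 0.11), and its other 5 probe sets ran from -0.12 to 0.31.

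Genes of receptors and the secretory pathway follow, with Rhobtb2. Pdgfrb, the platelet-derived growth factor receptor of pericytes, read 52, 50, 65 and 53 in control sham, 94, 54, 69 and 65 in control CCI, 78, 72, 80 and 79 in KO sham, and 50, 56, 60 and 76 in KO CCI. On the normalized scale sham and CCI arrays were separate in KO mice and overlapped in controls, and the interaction was -0.62 (SE 0.17), with -0.36 for the brighter probe set. Bmpr1a, a type I receptor for bone morphogenetic proteins, read 40, 48, 32 and 38 in control sham and 69, 59, 60 and 51 in control CCI. Its interaction was -0.65 (SE 0.18), but the brightest of its other 4 probe sets, at group means of 358 to 371, gave 0.02 (SE 0.10). Cnih4, of the cornichon family of cargo receptors for export from the endoplasmic reticulum, had -0.59 (SE 0.16), Rhobtb2 had -0.49 (SE 0.14), and the torsin ATPase gene Tor1b had 0.61 (SE 0.17). The brighter Tor1b probe sets gave the opposite sign, -0.22 and -0.13.

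The remaining genes act in metabolism, autophagy or immunity. Hgd, the homogentisate dioxygenase of tyrosine breakdown, read 45, 50, 40 and 54 in control sham, 38, 46, 48 and 40 in control CCI, 28, 36, 25 and 41 in KO sham, and 50, 52, 62 and 58 in KO CCI. Its interaction was 0.59 (SE 0.17, adjusted p = 0.822), and it was larger, at 0.83 (adjusted p = 0.248), without KO sham replicates 2 and 4. Atg7, the activating enzyme of autophagosome formation, had -0.67 (SE 0.18), and -0.44 without those arrays, with 0.19 and -0.24 in its other probe sets. C8g, the gamma chain of a complement component of the membrane attack complex, had -0.53 (SE 0.14), with 64 to 87 in KO sham against 53 to 57 in KO CCI. Armt1, a protein carboxyl methyltransferase, had 0.75 (SE 0.20), 1.14 within the low and 0.37 within the high array codes, and Smco4 had 0.31 (SE 0.09).

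Of the 24 genes, 18 had further probe sets on the array, 34 in all. Of these 15 shared the sign of the leading probe set and 19 had the opposite sign, and 3 had an unadjusted p under 0.05 (those of Dclk1, Polr1d and Tcof1 given above). In Tcof1, Pdgfrb, Ybx3, Nr2c1, Cnot8 and Armt1 each further probe set had the leading sign. In the other genes at least 1 did not.

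Another description takes the probe sets whose sham and CCI arrays did not overlap in either genotype and stood in opposite orders. It is not stricter than an unadjusted p under 0.05, since Serinc1 and Prkacb met it at limma's p of 0.0570 and 0.0652. Overlap was judged on the normalized scale. Deposited intensities can still overlap slightly, as for Ctnnb1, Commd1 and Rab2a. There were 14 of 22626 (0.0619%), 9 with CCI higher in KO mice and 5 with CCI lower in KO mice. What share meets this condition where nothing differs was not computed, so the count is a description only. Kifap3 and Tcof1 were the members of the 24 among the 14. Besides these 2, 9 were genes at a group mean of 50 or more (named here because they meet this condition). Ctnnb1, the beta-catenin of cell adhesion and Wnt signalling, read 863, 1030, 893 and 889 in control sham, 748, 864, 816 and 855 in control CCI, 925, 542, 901 and 647 in KO sham, and 1018, 938, 968 and 928 in KO CCI. Its interaction was 0.54 (SE 0.19), and 0.23 without KO sham replicates 2 and 4. Dyrk1a, a kinase of neuronal development, read 136, 58, 155 and 127 in KO sham and 201, 168, 161 and 168 in KO CCI, an interaction of 0.81 (SE 0.25) that was 0.57 without KO sham replicate 2.

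Prkacb, a catalytic subunit of protein kinase A, read 372, 46, 363 and 427 in KO sham, and Serinc1, a membrane protein gene, read 1582, 374, 1598 and 1471 there. In both, replicate 2 was far below the other 15 arrays. Their interactions of 1.21 (SE 0.61) and 0.94 (SE 0.45) became 0.55 and 0.45 without it. The brighter Prkacb probe set, with group means of 2190 to 2253, gave -0.02 (SE 0.11), and the brightest Serinc1 probe set, with 3283 to 3575, gave 0.14 (SE 0.09). Scd2, a fatty acid desaturase, went from 0.89 to 0.49, a probe set of the splicing factor gene Srsf1 from 0.89 to 0.47, and Rab2a, a GTPase of vesicle traffic, from 0.54 to 0.33. The brightest Srsf1 probe set gave 0.22 (SE 0.11) with all arrays. Commd1, a regulator of endosomal sorting and copper balance, had -0.44 (-0.36 without replicate 2), and Atp5d, a subunit of mitochondrial ATP synthase, -0.26 (-0.26). Without replicates 2 and 4, Commd1 was -0.28 and Atp5d, highest in KO sham replicate 4 at 2517, was -0.19. Map2 and Syt1, described next, are low in the same array, whose Actb ratio was 1.602. The part of that array's RNA quality in these values was not tested.

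Among neuronal genes, Map2, the dendritic microtubule-associated protein, read 296, 57, 271 and 258 in KO sham with its brighter probe set, against 270 to 322 in control sham, 235 to 299 in control CCI and 285 to 414 in KO CCI. Its interaction of 1.05 (SE 0.46, unadjusted p = 0.0362) was 0.58 without KO sham replicate 2 and 0.51 without replicates 2 and 4. Syt1, the calcium sensor of transmitter release, read 960, 174, 794 and 710 in KO sham, and its interaction of 0.86 (SE 0.50) was 0.35 without that array. Over the 24 measured pan-neuronal genes the median interaction was -0.02, equal to the median of -0.02 over all genes. In that list 1 gene (Map2) had an unadjusted p under 0.05, above 0, beside 1.75% above 0 and 2.64% below 0 of all genes. These shares of all genes are the reference for the counts of every list below. The mean deviation of the 24 genes from their own mean over the 16 arrays was -0.13 (log2) in KO sham replicate 2, the lowest array, against -0.04 to 0.04 in the other 15, and in 7 of the 24 that array was the lowest. Its median deviation was 0.00, so the low mean rests on part of the list.

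Of the 4 genes of the CCK system, 0 passed the test. Cck, the peptide precursor, read 652, 658, 721 and 754 in control sham, 681, 601, 783 and 689 in control CCI, 640, 761, 725 and 856 in KO sham, and 991, 666, 756 and 808 in KO CCI. The groups overlapped, and the interaction was 0.14 (SE 0.17, 95% interval -0.22 to 0.49), so a 2-fold difference lies outside the interval. Without KO sham replicates 2 and 4 it was 0.26. Cckar, the A-type receptor, read 18 to 42 in the 16 arrays, with an interaction of -0.32 (interval -0.79 to 0.15), or -0.18 without KO sham replicate 2. Gast, the gastrin precursor, read -9 to 21 and had -0.48 (interval -1.27 to 0.32), which leaves a 2-fold difference inside, and -0.30 without KO sham replicates 2 and 4. The fourth gene, Cckbr, has no signal in KO mice, so its interval bounds no difference.

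The opioid system gave 0 calls among 11 measured genes, and 0 at an unadjusted p under 0.05. Its median interaction was -0.02, with 5 genes above 0 and 6 below, and the intervals of 9 genes lay within 2-fold and of 7 within 1.5-fold. Penk, the enkephalin precursor, had group means of 524 (SD 67.2) in control sham, 505 (SD 50.2) in control CCI, 487 (SD 37.9) in KO sham and 456 (SD 43.2) in KO CCI. Its interaction was -0.02. Oprl1, the nociceptin receptor, read 341 to 429 over the 16 arrays and gave -0.08, and its ligand's precursor Pnoc read 144 to 193 and gave 0.08 (SE 0.12). Cpe, the carboxypeptidase that trims neuropeptides, read 4824 to 5380 and gave 0.06 (SE 0.08), the narrowest interval of the list at -0.11 to 0.24. Oprk1, the kappa receptor, gave 0.21 (SE 0.19) and Mme, the enkephalin-degrading peptidase neprilysin, -0.16 (SE 0.15).

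The mu receptor gene Oprm1 was near background on these arrays (-2 to 47), as were the dynorphin precursor Pdyn (1 to 49) and the delta receptor gene Oprd1 (4 to 42). The intervals of Oprm1 (-0.19, from -1.14 to 0.76) and Pdyn (-0.24, from -1.30 to 0.82) did not stay within 2-fold. That of Oprd1 did (0.04, from -0.81 to 0.89), but at a signal this near background the log2(intensity + 16) scale holds back any difference, so none of the 3 intervals limits the change of its transcript.

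**Figure D4:**
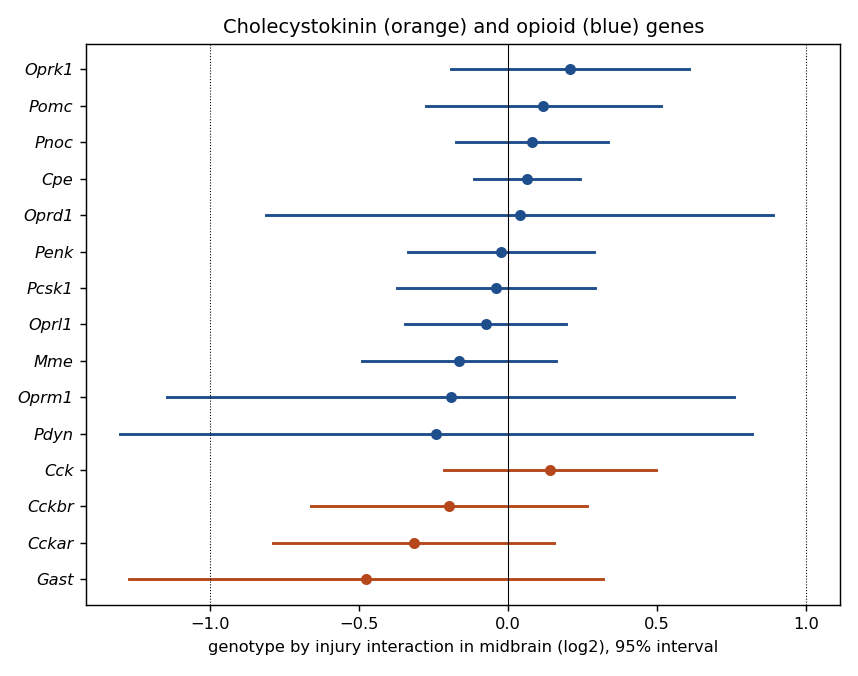
Interaction in midbrain (log2, points) with its 95% interval (lines) for the 4 genes of the CCK system and the 11 measured genes of the opioid system; dotted lines mark a 2-fold difference. Each interval holds 0, and those of Gast, Oprm1 and Pdyn, which are dim, cross a dotted line.

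Other peptides gave 0 calls among 30 measured genes, 0 at an unadjusted p under 0.05 and a median of -0.08. The member of smallest p was Npy2r, a neuropeptide Y receptor, with 9 to 12 in control sham and 12 to 43 in control CCI, and an interaction of -0.54 (SE 0.33). Trh, the thyrotropin-releasing hormone precursor, read 0 to 41 over the 16 arrays and gave -0.71 (SE 0.48), or -0.22 without KO sham replicates 2 and 4.

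Monoamine neuron genes had no call. Of 17 measured dopaminergic genes 0 had an unadjusted p under 0.05, 12 (70.6%, against 45.9% of all genes) lay above 0 and the median was 0.08. Slc6a3 gave 0.02 (interval -0.40 to 0.43), with group means of 598, 565, 587 and 561 in control sham, control CCI, KO sham and KO CCI, and Th gave 0.14 (interval -0.15 to 0.43). Of 9 measured serotonin and noradrenaline genes 0 reached that p, and 2 (22.2%, against 45.9% of all genes) lay above 0 and 7 below. Their median was -0.20, against -0.02 over all genes. Slc6a4, the serotonin transporter, read 178, 142, 104 and 169 in control sham, 151, 198, 163 and 173 in control CCI, 188, 184, 178 and 137 in KO sham, and 140, 151, 167 and 146 in KO CCI, and gave -0.38 (SE 0.21). All intervals of these 9 genes lay within 2-fold, but only 3 (33.3%, against 57% of all genes) within 1.5-fold. Phox2a among them was dim, at 17 to 43. The 10 measured cholinergic and cranial motor neuron genes had a median of -0.10 and 0 at that p.

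GABA and glycine transmission had the highest list median, 0.09 over 17 genes, with 12 (70.6%, against 45.9% of all genes) above 0 and 2 (11.8%, against 1.75%) above 0 at an unadjusted p under 0.05. Those 2 were Gabra3, a GABA-A receptor subunit (0.65, SE 0.25), and Glra1, a glycine receptor subunit (0.63, SE 0.26). Gabra3 read 55, 25, 41 and 41 in KO sham against 82, 65, 63 and 50 in KO CCI, and Glra1 26, 38, 37 and 50 in control sham against 16, 29, 26 and 24 in control CCI. Gabrb2, the beta 2 subunit, read 213, 42, 173 and 137 in KO sham and gave 0.99 (SE 0.48), or 0.58 without replicate 2. Without KO sham replicates 2 and 4, Gabra3 was 0.51, Glra1 was larger at 0.78 and Gabrb2 was 0.42, and the list median was 0.03. Among 17 glutamate receptor and transporter genes 1 had an unadjusted p under 0.05. This was Grik1, a kainate receptor subunit, which read 67, 77, 84 and 71 in control sham and 89, 93, 109 and 96 in control CCI without overlap, and 82 to 105 in KO sham and 83 to 101 in KO CCI. Its interaction was -0.33 (SE 0.12).

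Ion channels studied in pain gave 2 of 33 genes (6.06%, against 1.75% of all genes) above 0 and 2 (6.06%, against 2.64%) below 0 at an unadjusted p under 0.05. Kcnj3, a G protein-gated inward rectifier, gave 0.51 (SE 0.20, with KO sham replicate 2 lowest at 39, and 0.33 without it), and the voltage-gated potassium channel gene Kcnd3 gave 0.41 (SE 0.18). Cacna1c, an L-type calcium channel, read 51, 48, 60 and 54 in control sham and 89, 60, 83 and 72 in control CCI, with 46 to 59 in KO sham and 41 to 64 in KO CCI, and gave -0.44 (SE 0.17). Trpv2, a cation channel, gave -0.39 (SE 0.16). Among 39 G protein subunits and RGS proteins, 2 (5.13%, against 1.75% of all genes) reached that p, both above 0. Plcb1, the phospholipase that Gq activates, read 60, 69, 53 and 56 in control sham and 35, 38, 49 and 55 in control CCI. It read 59, 47, 24 and 37 in KO sham and 88, 75, 58 and 50 in KO CCI. Its interaction was 0.81 (SE 0.27, adjusted p = 0.822), and 0.91 without KO sham replicates 2 and 4. Rgs3, which speeds the turn-off of G proteins, gave 0.20 (SE 0.09). Synaptic plasticity kinases and scaffolds (27 genes) had 0 at that p and a median of 0.02, and the intervals of 26 lay within 2-fold.

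Glial lists had narrow intervals. All 22 astrocyte genes lay within 2-fold and 20 within 1.5-fold, with a median of 0.04 and 0 at an unadjusted p under 0.05. All 19 oligodendrocyte and myelin genes lay within 2-fold, with a median of -0.00. At that p there were 2 of them (10.5%, against 2.64% of all genes), both below 0. These were Myrf, the transcription factor of myelination (-0.35, SE 0.14, with KO sham replicate 4 highest at 640), and Nkx6-2, a homeobox factor of the same cells (-0.34, SE 0.14, with 133 in that array). Without KO sham replicates 2 and 4 they gave -0.18 and -0.26. The 8 oligodendrocyte precursor genes had a median of 0.01 and 0 at that p.

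Microglia and macrophage markers, often reported to respond in the spinal cord after nerve injury, gave 0 of 25 genes at an unadjusted p under 0.05, a median of -0.03 and 23 intervals within 2-fold. P2ry12, the purinergic receptor of resting microglia, gave 0.55 (SE 0.28), with 226, 84, 221 and 153 in KO sham and 224 to 269 in KO CCI, and 0.12 without KO sham replicates 2 and 4. The complement genes C1qb and C1qc gave 0.17 (SE 0.13) and 0.24 (SE 0.17). Without those arrays C1qb was 0.04, and C1qc was larger at 0.34. Toll-like receptor and innate signalling genes gave 2 of 35 (5.71%, against 1.75% of all genes) above 0 at that p. These were Nos2 (0.88) and Il1a (0.67), both near background at -10 to 26 and 2 to 34. Below 0 at that p the list had 1 gene (2.86%, against 2.64%). This gene was Rela, a subunit of the transcription factor NF-kappa B, which read 264, 297, 258 and 358 in KO sham against 220, 215, 252 and 225 in KO CCI. It gave -0.38 (SE 0.13), or -0.24 without KO sham replicates 2 and 4. Interferon response and antigen presentation genes gave 1 of 33 (3.03%, against 2.64%), below 0, which was Irf9 (-0.37, SE 0.15).

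Vessel, meningeal and blood genes are a check on the cells of the dissection. Endothelial and mural genes had a median of -0.08 and 1 of 24 at an unadjusted p under 0.05. This was Pecam1 at 0.53 (SE 0.17), with 39, 33, 27 and 21 in KO sham against 52, 47, 42 and 41 in KO CCI, whereas Cdh5, the cadherin of the same junctions, gave -0.49 (SE 0.26). Cdh5 was -0.25 without KO sham replicate 4 and -0.15 without replicates 2 and 4, where Pecam1 was 0.45 and 0.50. Meningeal and fibroblast genes had a median of -0.15, with 17 of 21 below 0 and 19% above 0, against 45.9% of all genes above 0. At an unadjusted p under 0.05 there was 1 (Postn, -0.32), below 0 (4.76%, against 2.64% of all genes). Of 11 red blood cell and granulocyte genes, 1 (9.09%, against 1.75% of all genes) was above 0 at that p (Lcn2, 1.08, SE 0.47). Below 0 were 2 (18.2%, against 2.64%), Mpo and S100a9, at -0.66 and -0.43. Without KO sham replicates 2 and 4, Lcn2 was 0.66, Mpo was larger in size at -0.95 and S100a9 was -0.44.

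Choroid plexus and ependymal genes had a median of -0.24, with 13 of 15 below 0 (6694 of 12393 over all genes) and 2 (13.3%, against 2.64% of all genes) below 0 at an unadjusted p under 0.05. Ttr, the transthyretin made by choroid plexus, read 633, 710, 2040 and 181 in control sham, 1151, 874, 985 and 500 in control CCI, 1205, 1138, 2219 and 5211 in KO sham, and 268, 354, 639 and 1073 in KO CCI. Sham and CCI did not overlap in KO mice, and the control CCI arrays all lay inside the range of control sham. The interaction was -2.35 (SE 0.90, unadjusted p = 0.0197, adjusted p = 0.822), and -2.04 without KO sham replicates 2 and 4. It is the lowest value of all 12393 genes, with a wide 95% interval of -4.26 to -0.43. The other 2 Ttr probe sets gave -2.25 and -2.22. Foxj1, the factor of motile cilia, gave -0.54 (SE 0.24), or -0.33 without those arrays. The mean deviation of the 15 genes from their own mean over the 16 arrays (log2) ran from -0.05 to 0.28 in KO sham, from -0.20 to -0.00 in KO CCI, from -0.23 to 0.11 in control sham and from -0.08 to 0.18 in control CCI. KO sham replicates 4 and 2 were the highest arrays, at 0.28 and 0.24. In the medulla the same interaction had a list median of -0.91. There the Ttr probe sets, in the order above, gave -1.39, -1.62 and -2.14, and Foxj1 gave -0.02. The part of choroid plexus in the dissected pieces in other results was not tested.

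Tcf7l2, a factor of thalamic and habenular neurons, read 1552 in KO sham replicate 2 and 944 in replicate 4 against 378 to 941 in the other 14 arrays, and gave -0.99 (SE 0.48), or -0.36 without these 2 arrays. A dimmer Tcf7l2 probe set gave the opposite sign, 0.26 (SE 0.11). Synpo2, the member of smallest p in the thalamic and habenular list, had the lowest interaction of that list, just below the -0.99 of Tcf7l2. The SE for Synpo2 was 0.47 (limma's unadjusted p = 0.0504), and its interaction was -0.30 without KO sham replicates 2 and 4. The 15 genes of the list did not move as one: 9 had interactions above 0, among them Calb2 (0.29) and Rora (0.37), and 6 below 0. Their mean deviation was 0.17 in KO sham replicate 2 and 0.09 in replicate 4, against -0.15 to 0.12 in the other 14 arrays, while their median deviation was 0.127 and -0.116. Cntfr, the ciliary neurotrophic factor receptor and the nerve injury and regeneration gene of smallest p, read 147, 297, 183 and 400 in KO sham, 113, 127, 127 and 188 in KO CCI, 172, 133, 154 and 171 in control sham, and 174, 170, 240 and 266 in control CCI. Its interaction was -1.11 (SE 0.34, unadjusted p = 0.00570, adjusted p = 0.822), and -0.61 without KO sham replicates 2 and 4. In the 31 genes of that list, with a median of -0.06, 1 (3.23%, against 1.75% of all genes) was above 0 at an unadjusted p under 0.05. This was Gfra1, a receptor for glial cell line-derived factor (0.44). Below 0 were 2 (6.45%, against 2.64%), Cntfr and Ecel1, the latter -0.40, or -0.26 without KO sham replicates 2 and 4. Midbrain patterning genes had a median of -0.11 and 1 of 25 at an unadjusted p under 0.05 (Tfap2b, -0.50, SE 0.17). Hindbrain Hox genes, which are near background in midbrain, had -0.23 and 0 of 19. Cerebellar genes had 0.01 with 2 of 17 (11.8%, against 2.64% of all genes) below 0 at that p. These were Zic2 and Zic4 (-0.62 and -0.45, or -0.22 and -0.27 without KO sham replicates 2 and 4). Thalamic and habenular, cortical and hippocampal, and hypothalamic, pituitary and striatal genes had 0.03, -0.01 and 0.04, with 0 at that p.

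Lists of activity and stress stayed near the median of all genes. Immediate early genes had a median of -0.00 and 0 of 33 at an unadjusted p under 0.05. Heat shock and unfolded protein genes had 0.01 and 0 of 34, with 33 intervals within 2-fold and 28 within 1.5-fold. Glucocorticoid and stress response genes had 0.02 and 1 of 24 (Lcn2, given above), and axon guidance genes -0.01 and 0 of 46. Circadian clock genes had 0.01 and 1 of 20 at that p: Nr1d2, a repressor of the clock loop, read 1378, 1432, 1458 and 1434 in control sham, 1235, 1357, 1313 and 1385 in control CCI, 1264, 1032, 1192 and 1168 in KO sham, and 1315, 1405, 1378 and 1179 in KO CCI, and gave 0.27 (SE 0.10).

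Lists of housekeeping machinery had narrow intervals too. All 72 mitochondrial respiratory chain genes had intervals within 2-fold and 70 within 1.5-fold. Their median was -0.05, and 3 (4.17%, against 2.64% of all genes) had an unadjusted p under 0.05, below 0 (Atp5d, Ndufb7 and Ndufa13 at -0.26, -0.26 and -0.18). All 43 cytosolic ribosomal protein genes lay within 2-fold, with a median of -0.06. At that p 1 (2.33%, against 1.75% of all genes) was above 0 (Rpl12, 0.36). Below 0 were 2 (4.65%, against 2.64%), Rps6 and Rps25, both at -0.38. Without KO sham replicate 2 Rps25 was -0.25, without replicates 2 and 4 it was -0.14, and Rps6 was then -0.29. Without both arrays Ndufb7 was -0.16 and Atp5d was -0.19. Splicing and RNA-binding factors had 0.04 and 2 of 41 above 0 (Hnrnpa1 and Srsf2), and ubiquitin proteasome genes 0.05 with 1 of 34 above 0 (Psmb7, 0.25) and 1 below 0 (Psmb3, -0.34). Without KO sham replicates 2 and 4 Hnrnpa1 went from 0.41 to 0.21, Psmb7 to 0.13 and Psmb3 to -0.15. Across the 38 lists no member passed the adjusted threshold.

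**Figure D5:**
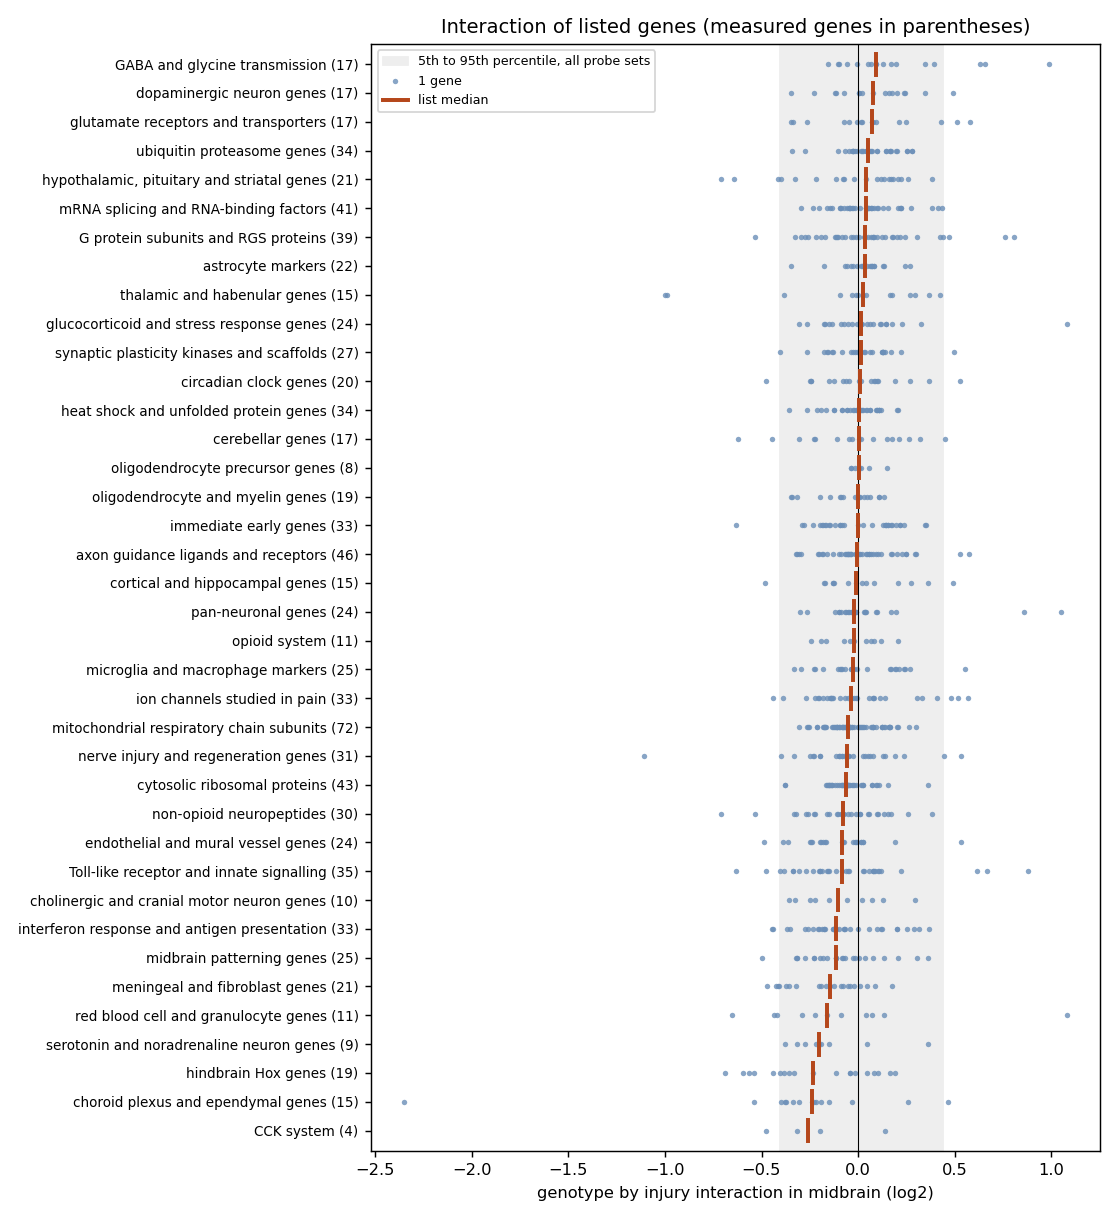
Interaction in midbrain (log2) of the measured genes of each of the 38 lists (points, 1 probe set per gene) with the list median (bar), ordered by median; the grey band runs from the 5th to the 95th percentile of all probe sets (-0.40 to 0.44). List medians run from -0.26 (CCK system, 4 genes) to 0.09 (GABA and glycine transmission), and the point at -2.35 is Ttr. The CCK system median rests on the deleted Cckbr (-0.20) and the dim Cckar (-0.32) and Gast (-0.48). Its bright member Cck gave 0.14.

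The same interaction was computed in the medulla of the same mice. There too 0 probe sets passed (0%, smallest adjusted p = 0.9997), and 604 (2.67%) had an unadjusted p under 0.05. The direct test of midbrain interaction minus medulla interaction, with the animal as a random block (limma, consensus correlation 0.24), gave 0 calls (0%, smallest adjusted p = 0.638) and 1499 probe sets (6.63%) at an unadjusted p under 0.05. Over all probe sets the 2 interactions had the same sign in 49.98% and correlated at r = 0.0195, a description across features that share animals.

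For the 24 midbrain genes the median absolute medulla interaction was 0.08. It was 0.12 over all probe sets, which unlike the 24 were not filtered by level. The sign was that of midbrain in 17 of the 24 and in 49.98% of all probe sets, a difference that was not tested. In 1 gene, Hgd, the medulla interaction had an unadjusted p under 0.05, and it was of the opposite sign at -0.67. Hgd read 54, 55, 39 and 25 in control sham, 44, 41, 47 and 51 in control CCI, 46, 53, 45 and 52 in KO sham and 35, 46, 20 and 12 in KO CCI medulla. The difference between regions was 1.26 for Hgd (limma's unadjusted p = 0.000635, adjusted p = 0.638), so it did not pass. Kifap3 in the medulla read 713, 822, 837 and 929 in control sham, 815, 826, 796 and 877 in control CCI, 838, 808, 598 and 994 in KO sham, and 815, 903, 780 and 775 in KO CCI, an interaction of 0.03 with overlapping groups.

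Dclk1, at -0.09 in medulla, and Grik1, at 0.36, differed between regions by 0.94 and -0.69 (unadjusted p = 0.00327 and 0.000492), and neither passed after adjustment. Ttr, the lowest midbrain value, was -1.39 in medulla, and its difference between regions was -0.96 (limma's unadjusted p = 0.386). In 16 of the 24 genes the region difference had an unadjusted p under 0.05, which partly follows from picking them by the midbrain value that enters it. An interaction particular to the midbrain was therefore not shown for any gene tested here.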

How the data were processed

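Messenger RNA of the midbrain (16 arrays) was measured on Affymetrix mouse 430A2 arrays. Per the labels, total RNA was extracted with TRIzol and biotin-labelled cRNA was made from it. The authors deposited 1 intensity per probe set and array on a linear scale. Software, scaling and background method are not given in the sources used here.

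Intensities below 0 were set to 0, 16 was added, log2 was taken and all 32 arrays were quantile normalized. The 64 AFFX control probe sets were left out. A linear model with a mean per group was fitted with limma 3.58.1 (lmFit, eBayes, both tails, R 4.3.3), p-values were adjusted by Benjamini-Hochberg over 22626 probe sets, and an adjusted p under 0.05 was a call. The fit was tested on simulated data. For the difference between regions, an animal was taken as the arrays of consecutive numbers. For KO sham 3 and 4 these disagree with the titles.

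Of the probe sets, 20380 carried 1 gene symbol (12393 genes), 691 several and 1555 none, from the platform annotation, and 20351 were matched to RefSeq (GRCm38.p6) for current symbols.

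The interaction, the 38 gene lists and the rules were chosen with earlier results of these data known. The genes named were, in each direction, the 12 of smallest p (none passed) with 1 symbol and a group mean of at least 50, 1 probe set per gene, plus Cckbr and up to 4 members of smallest p per list. Other genes are named for the reason stated with them, or for their known role in a list, after their values were seen. A list was described by its counts and median, with no set test, each gene by its brightest probe set.

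Alternatives were median centring, quantile normalization before the floor or of the midbrain arrays alone, pseudocounts of 1 and 64, a trended and robust variance, array weights, omission of the dimmest 33.3% of probe sets, the array code or the title number as a block, fits within a code, 1 probe set per gene, and omission of each array and of KO sham 2 and 4 together.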

Additional observations from a re-analysis of the deposited data

Results flagged for a closer look

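Dixon's test of the highest or lowest of 4 arrays flagged 8 of 116 groups, where chance flags about 1 in 20. KO sham replicate 2 stood apart in the log2 ratio of the 3' to the 5' control probe set of Actb (1.602, next value 0.627) and of Gapdh (0.354, next -0.117). KO CCI replicate 1 stood apart in the Actb ratio at the low end (0.364, next 0.561). For Cckbr, KO sham replicate 2 lay at the floor of the log2 scale (4, next 4.74), a value below 0 in a group without the gene.

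Of the leading genes, Rnf138 was high in KO sham replicate 3 (log2 value 6.141, next 5.832), Smarcc1 was low in control sham replicate 1 (7.797, next 8.106), Cnih4 was low in the same array (7.964, next 8.228) and Atg7 was low in control sham replicate 4 (6.033, next 6.416). Without the named array, the interaction of each of these genes kept its sign.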

How the results depend on the processing

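The midbrain interaction gave 0 calls in 29 of 30 alternatives, with 575 to 2236 probe sets at an unadjusted p under 0.05. Leaving out KO sham 2 and 4 together gave 1 call for the interaction, 1 for the region difference and 2 for CCI in KO mice. The shared call was Gsc (interaction -0.72, adjusted p = 0.004), whose arrays all lay below 0 except KO sham 1 and 3 at 10 and 12, so that all other groups sit at the floor without spread. The other was Hgd for CCI in KO mice (0.79, adjusted p = 0.0385). Without 1 array each, the midbrain comparisons gave 0 calls, the medulla interaction 0 to 1 (Nepro without KO sham medulla 1, Cps1 without control CCI medulla 3) and the region difference 0 to 2 (Ets1 and Nepro, without KO sham medulla 1, an alternative chosen after seeing the data). The interaction of none of the 24 leading genes changed sign or passed in any alternative run (adjusted p 0.248 to 1). List members past the threshold stayed at 0, and of 114 recomputed list medians 101 moved by less than the spread between arrays. With the title number as a replicate block the count was 0 for the interaction and for CCI in either genotype. Arrays of the same number deviated from their group means with correlations of -0.124 to 0.207 (mean 0.066). For other numbers these were -0.229 to 0.191 (mean -0.0219). The ranges overlapped, and the numbers were not taken to pair the arrays. The mean correlation was 0.0494 between arrays of the same code (low or high) and -0.0493 between codes, and the main fit held no term for the code. Fits within either array code gave 0 calls. Precision is limited by 4 arrays per group and, for dim genes such as Oprm1 or Gast, by signal near background.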
